A study of Mus musculus with 6 samples.

Results

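The natriuretic peptide system was followed in 4434 melanoma cells through 8 genes. These were the peptide precursors Nppa, Nppb and Nppc, the receptors Npr1, Npr2 and Npr3, and the proteases Corin and Furin. They are 8 of the 18193 genes measured and were covered by 10 probe sets (groups of short probes against 1 transcript), taken as all probe sets that the platform annotation gives to exactly 1 of these genes. The family was chosen with the rise of Nppb in these same arrays already known, so the members' differences, and whether the fit over all genes called them, are given as a description and not as evidence.

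The 4434 line is a mouse melanoma line with the V600E allele of Braf. All cells carried a doxycycline-inducible lentiviral vector for Oct4, Sox2, Klf4 and a blasticidin resistance gene, and another vector for the doxycycline-dependent transactivator and the mCherry reporter. The + dox group (3 arrays) received doxycycline and, by the study's methods, blasticidin, and the − dox group (3 arrays) held both vectors without doxycycline. RNA of both groups was taken at day 20. Whether the − dox cells also received blasticidin is not stated, so in these arrays doxycycline, selection and the 3 factors cannot be told apart. The study separately gave doxycycline to parental 4434 cells and measured stemness and melanocytic markers by qPCR. Nppb was not among those markers. The arrays of a group are not said to come from separate cultures, so the spread behind each p-value is that between these 6 arrays and may be technical.

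Natriuretic peptides are hormones and local signals best known from the heart, where the atria and ventricles release Nppa and Nppb products that promote salt excretion and relax vessels. Their precursors are cut by proteases, and the mature peptides bind receptors that are themselves guanylyl cyclases and raise cyclic GMP inside the cell. A further receptor without cyclase activity takes the peptides up and clears them. Nppb is also widely used as a marker of strain on heart muscle.

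Values are log2 RMA expression values, so a difference of 1 is a doubling. The lower quartile of all probe sets lay between 3.84 and 3.90 on the 6 arrays and the median between 5.33 and 5.37. Values under the lower quartile were read as near the low end of the scale. On the first principal component (63.2% of the variance) + dox 1 lay at 10.5, nearer to the − dox arrays than + dox 2 (41.9) and + dox 3 (54.4), and − dox 1 was set off from the other 5 arrays along the next component (20.0%). Of 8 melanocyte markers 0 were called by the test across all genes in either direction (4.87% of all genes were). The pigment genes Tyr and Mlana lay under the lower quartile on all 6 arrays and Tyrp1 on 5. Dct (4.21 to 4.61) and Slc45a2 (4.87 to 5.23) lay between the lower quartile and the median on every array, and Pmel (5.25 to 5.43) about the median. Mitf, the melanocyte regulator, was at 6.41, 6.83 and 6.17 in + dox and 8.15, 6.87 and 6.67 in − dox arrays. The neural crest factor Sox10 was at 6.12 to 6.46. The summed level of the 8 markers, on the linear scale, ranged from 276 to 324 in + dox and from 307 to 476 in − dox arrays. These ranges overlapped. Mitf and Sox10 had the highest values of the 8 on every array, and Mitf on − dox 1 the highest of all, so they weigh most in the sum.

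The windows just upstream of the neighbouring genes Nppb and Nppa are shown first because these genes lie side by side on chromosome 4 and had unlike differences between the groups, given below. Each window is the 250 bases before the gene's start in RefSeq (GRCm38.p6, + strand), at chr4:147985650-147985899 for Nppb and chr4:148000472-148000721 for Nppa. Capitals mark matches to the GATA motif (AGATAA, also with T as its first or G as its last base) and to the M-CAT motif bound by TEAD factors (CATTCC), both searched on both strands.
Nppb: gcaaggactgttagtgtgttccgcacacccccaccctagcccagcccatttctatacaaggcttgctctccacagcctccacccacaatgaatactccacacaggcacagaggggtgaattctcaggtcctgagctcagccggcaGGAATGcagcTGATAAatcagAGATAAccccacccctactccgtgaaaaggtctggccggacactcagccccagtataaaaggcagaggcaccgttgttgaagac
Nppa: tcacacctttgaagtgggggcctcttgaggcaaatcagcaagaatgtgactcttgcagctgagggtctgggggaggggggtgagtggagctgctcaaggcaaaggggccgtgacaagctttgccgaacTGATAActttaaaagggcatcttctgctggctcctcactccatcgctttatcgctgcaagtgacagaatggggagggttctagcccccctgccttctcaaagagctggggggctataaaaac
In the Nppb window the M-CAT match, read as GGAATG on this strand, lay at −105 to −100 from the start, and GATA matches lay at −95 to −90 and −84 to −79. The Nppa window held 1 GATA match at −122 to −117 and no match to M-CAT. Of 32851 windows of the same length, 26.5% held a GATA match, 12.6% an M-CAT match and 3.47% both. GATA matches at 2 or more places, as in the Nppb window, were held by 6.4%. The AP-1 (TGANTCA), CArG, octamer (TGCAAAT), SOX (CATTGT) and KLF (GGGTGTG) motifs were searched too, on both strands and with overlaps allowed. Nppb held a SOX match at −166 to −161 and a KLF match at −227 to −221, which 10.7% and 6.93% of windows held, and Nppa held 0 of these. The other 6 members held 0 of the 7 motifs in their windows. The share of all windows that held 0 of the 7 was not counted, so nothing is read from this contrast. A match is a description of the letters and not of binding.

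Nppb, the precursor gene of B-type natriuretic peptide, had a far larger change than any other member. Its probe set 1450791_at read 13.40, 13.55 and 13.52 on + dox arrays 1, 2 and 3. On − dox arrays 1, 2 and 3 it read 5.47, 6.60 and 5.86. The groups did not overlap, with a gap of 6.80 between the lowest + dox and the highest − dox array. Means were 13.49 ± 0.0794 in + dox and 5.98 ± 0.574 in − dox cells (SD, n = 3), a difference of 7.51 (SE 0.27) or 183-fold. The spread was wider among the − dox arrays, of which − dox 2 was the highest. Against all probe sets of its own array Nppb lay at percentiles 99.7 to 99.8 in + dox cells, close to the top of the deposited scale (highest value 14.44), and at percentiles 51.5 to 63.9 in − dox cells. In bulk samples, fewer cells of a type and less RNA per cell cannot be told apart, and the values do not show in what share of cells Nppb was high.

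**Figure D1:**
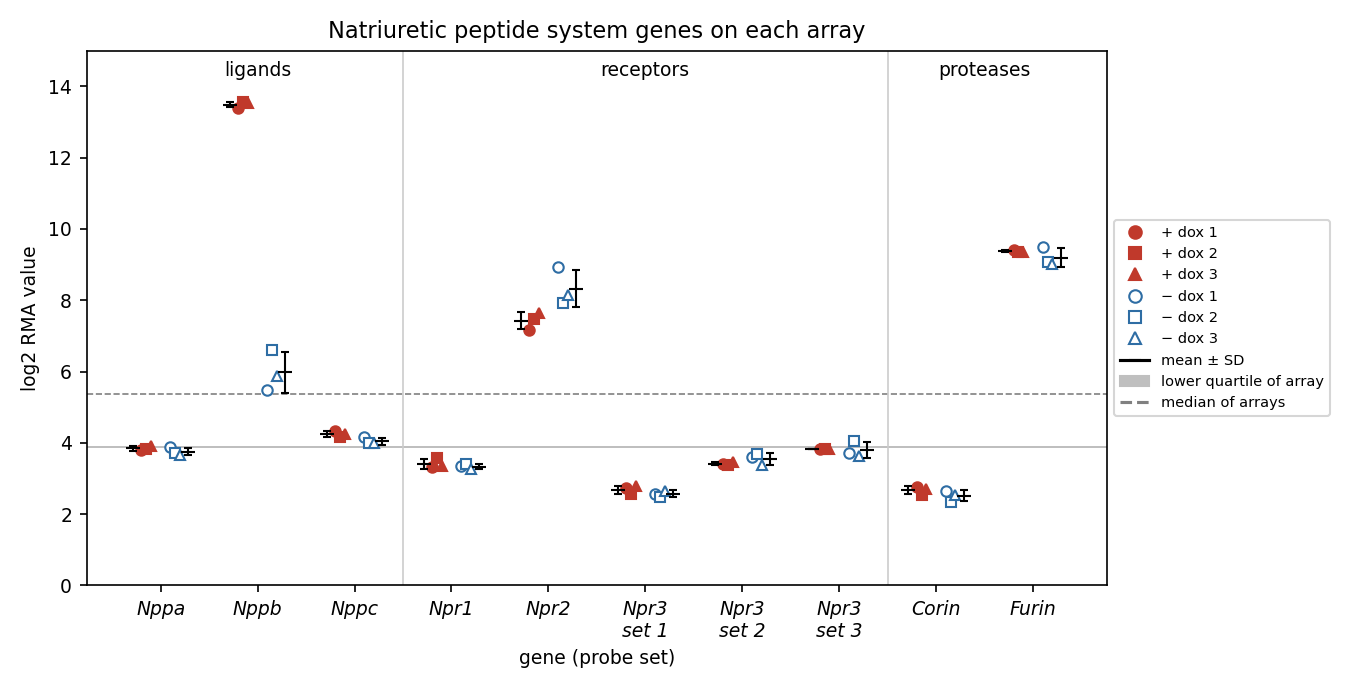
Log2 RMA value (vertical axis) of each of the 10 probe sets of the 8 members on the 6 arrays (filled red symbols + dox, open blue symbols − dox, black marks mean ± SD of 3 arrays, horizontal lines the lower quartile and the median of the arrays, Npr3 sets in order from dimmest to brightest). The + dox arrays lay from 13.40 to 13.55 for Nppb and the − dox arrays from 5.47 to 6.60, and Npr2 was the other member whose groups did not overlap.

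The other peptide genes stayed low. Nppa, the precursor of atrial natriuretic peptide, read 3.79, 3.83 and 3.91 in + dox and 3.87, 3.71 and 3.67 in − dox arrays, a difference of 0.09 (SE 0.10). The groups overlapped, and Nppa lay under the lower quartile on 4 of 6 arrays. Nppc, the precursor of C-type natriuretic peptide, which acts in bone and vessels, read 4.32, 4.15 and 4.25 in + dox and 4.15, 3.99 and 3.99 in − dox arrays (difference 0.20, SE 0.10). Its values lay between the lower quartile and the median on every array, and + dox 2 equalled − dox 1.

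Among the receptors only Npr2 lay above the array median on all 6 arrays. Npr2, the guanylyl cyclase receptor for C-type natriuretic peptide, read 7.17, 7.46 and 7.64 in + dox and 8.92, 7.91 and 8.15 in − dox arrays. Every − dox array was above every + dox array, by 0.27 at the nearest. The difference was −0.90 (SE 0.27), 1.87-fold lower in + dox cells, and it did not pass the threshold over all genes. Array − dox 1 was the highest, and without it the difference was −0.61. Npr1, the guanylyl cyclase receptor for the Nppa and Nppb peptides, read 3.33, 3.57 and 3.34 in + dox and 3.34, 3.40 and 3.26 in − dox arrays (difference 0.08, SE 0.11). It lay under the lower quartile on all 6 arrays, so both groups had low values of the receptor gene for the product of Nppb.

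Npr3, the clearance receptor, was covered by 3 probe sets. The brightest, 1450286_at, read 3.82, 3.82 and 3.83 in + dox and 3.72, 4.06 and 3.63 in − dox arrays, a difference of 0.02 (SE 0.13). The next, 1448024_at, read 3.40, 3.38 and 3.47 against 3.60, 3.69 and 3.37, a difference of −0.14. The dimmest, 1435184_at, read 2.72, 2.56 and 2.78 against 2.57, 2.47 and 2.66, a difference of 0.12. The probe sets thus differed in sign, all had overlapping groups, and they lay under the lower quartile on 5, 6 and 6 arrays.

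The groups overlapped for both processing proteases. Furin, a proprotein convertase of the secretory pathway that can cut the Nppb precursor, read 9.41, 9.36 and 9.36 in + dox and 9.50, 9.06 and 9.03 in − dox arrays (difference 0.18, SE 0.14). It lay at percentiles 84.5 to 88.1 of its arrays, and − dox 1 was the highest of the 6 arrays, above every + dox array. Corin, the transmembrane protease that activates the atrial peptide in the heart, read 2.77, 2.54 and 2.71 in + dox and 2.66, 2.35 and 2.54 in − dox arrays (difference 0.16, SE 0.12). It lay under the lower quartile on all 6 arrays.

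Over the 8 members 1 was called higher (Nppb), 0 were called lower and 7 were not called, with 3.07% of all genes called higher and 1.80% called lower (limma, adjusted p under 0.05). With probe sets in place of genes, 1 of the 10 was called, with 3.65% of all probe sets called. The groups did not overlap for 2 members, Nppb and Npr2, with 26.9% of all genes in that state. The members were chosen on this comparison, so nothing is read from these counts. Of the 8 genes, 3 (Nppb, Npr2 and Furin) lay above the median on all 6 arrays, and 4 (Nppa, Npr1, Npr3 and Corin) lay under the lower quartile on at least 1 array.

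The genes on either side of Nppb were examined next. Of the 5 nearest measured genes on each side, 0 were called in either direction by limma (4.87% of all genes were), and 2 had a p under 0.05 before adjustment (21.7% of all genes did). The differences of the probe sets that stand for them lay between −0.58 and 0.38. Nppa, directly next to Nppb, is one of them. Mfn2, a gene of mitochondrial fusion, read 8.33, 8.36 and 8.48 in + dox and 7.97, 8.13 and 7.93 in − dox arrays (difference 0.38, SE 0.10, limma adjusted p = 0.0869). Clcn6, a chloride transporter gene of late endosomes, read 6.69, 6.35 and 6.13 against 7.15, 6.82 and 6.93 (difference −0.58, SE 0.17, adjusted p = 0.110), and its other probe set had the opposite sign. In these probe sets of Mfn2 and Clcn6 the groups did not overlap, but in the other probe set of each they did. That of Mfn2 differed by 0.13 (SE 0.17). Differences were −0.15 for Miip, 0.10 for Fv1, 0.38 for Plod1 (with the opposite sign in its other probe set), 0.16 for 2510039O18Rik, 0.18 for Agtrap, 0.08 for Draxin and 0.19 for Mad2l2. For 2510039O18Rik a further probe set read 8.31, 8.34 and 8.45 in + dox and 8.04, 8.04 and 7.96 in − dox arrays. The groups did not overlap there, with a difference of 0.35 (SE 0.09). The other probe set of Agtrap, an angiotensin receptor-associated protein gene, read 6.96, 6.96 and 7.57 in + dox and 6.06, 6.51 and 6.49 in − dox arrays. Its groups did not overlap, with a difference of 0.81 (limma adjusted p = 0.0898 with the probe set of largest variance for each gene). Over all settings, most of which used the brighter probe set instead, the adjusted p of Agtrap ranged from 0.0898 to 0.710. Between Clcn6 and Agtrap lie 4 genes that were not analysed here.

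**Figure D2:**
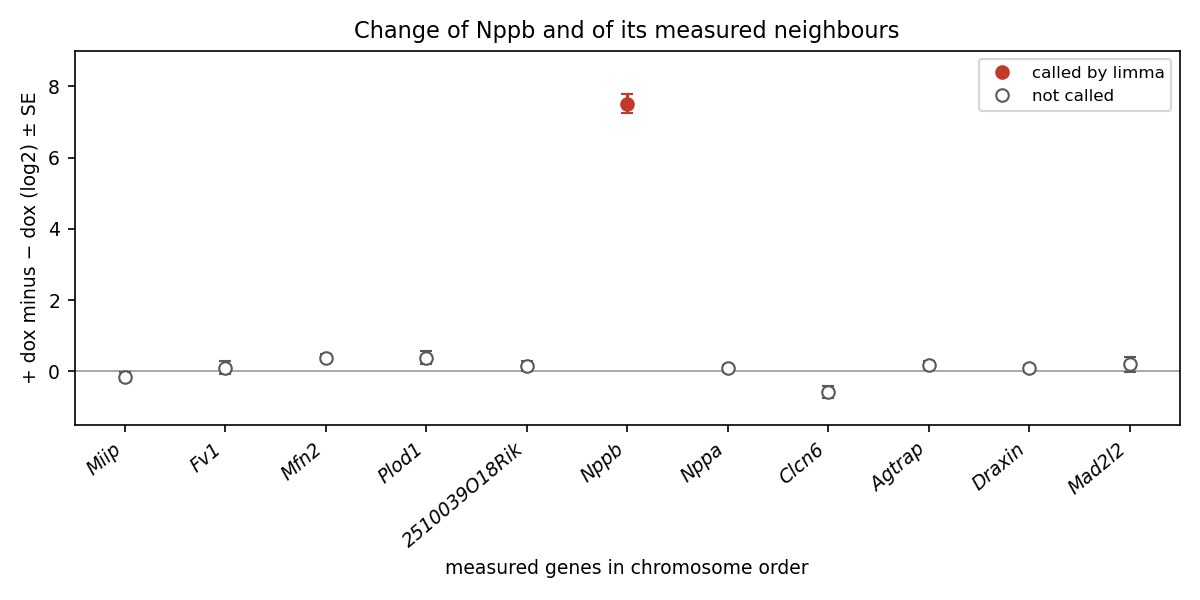
Difference between + dox and − dox arrays (vertical axis, log2, with the SE) of Nppb and the 5 measured genes on each side, in their order along chromosome 4 (horizontal axis). Nppb stood at 7.51 and the probe sets that stand for the other 10 genes between −0.58 and 0.38. Further probe sets of these genes, among them those of Agtrap at 0.81 and 2510039O18Rik at 0.35, are not drawn.

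The profile of Nppb over the 6 arrays, taken relative to its − dox mean, was closest to that of Msln, Urah, Aldh3a1, Plet1 and Ifi209. The root mean square difference over 6 arrays was 0.313 for Msln (mesothelin, a surface glycoprotein), 0.437 for Urah (an enzyme of urate breakdown), 0.549 for Aldh3a1 (an aldehyde dehydrogenase), 0.562 for Plet1 (a surface protein of placenta and epithelial progenitors) and 1.07 for Ifi209 (an interferon-inducible gene). These genes were picked for their likeness to Nppb, and the size of the change sets most of it. In the − dox arrays Nppb deviated from its mean by −0.51, 0.62 and −0.12 and Plet1 by −0.49, 0.58 and −0.09. Plet1 differed among the + dox arrays, at 6.30, 6.79 and 7.66 above its − dox mean, whereas Nppb stood at 7.42, 7.57 and 7.54.

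**Figure D3:**
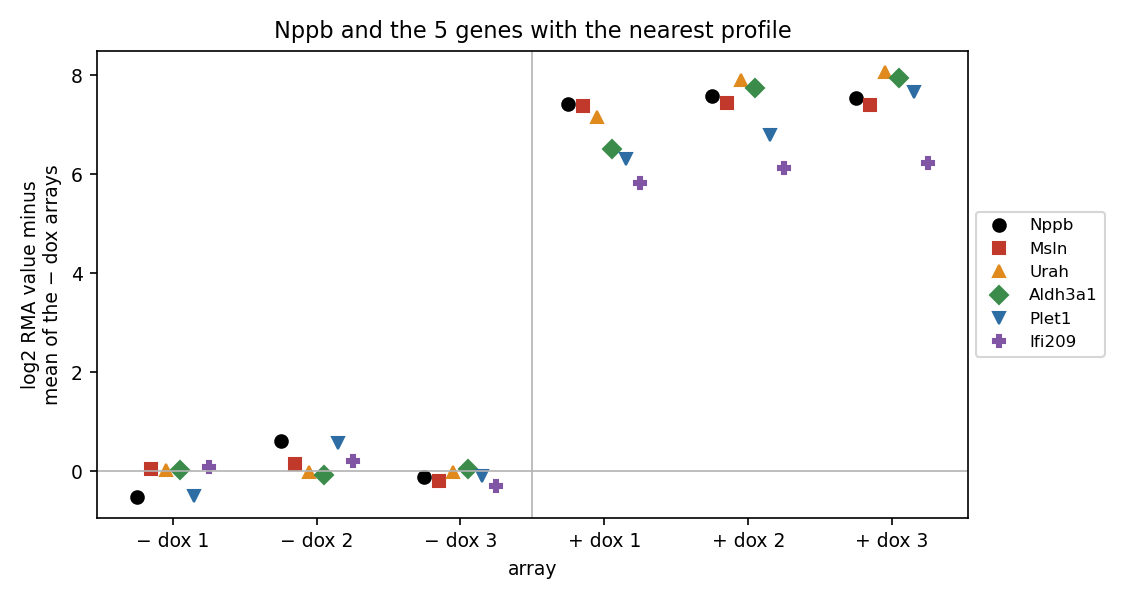
Log2 RMA value minus the gene's own mean over the − dox arrays (vertical axis) for Nppb and the 5 genes with the nearest profile, on each array (horizontal axis, points offset sideways for legibility). Nppb and Plet1 were low on − dox 1 and high on − dox 2, and + dox 1 was the lowest + dox array for all 6 genes.

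The wider pathway was described through 6 lists of genes, of which 94 of 105 were measured. Of these 5 were called higher, 1 was called lower and 88 were not called (6.38% called, against 4.87% of all genes), and 15 had a p under 0.05 before adjustment (21.7% of all genes did). List medians lay between −0.03 and 0.11, with 0.01 over all genes. Of the calls only that of Tead4 held whichever array was left out.

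Among 8 measured guanylyl cyclases and their other ligands 0 were called (limma, 1 with a p under 0.05 before adjustment). Gucy1a2, a subunit of the nitric oxide receptor cyclase, differed by 0.40 (SE 0.11, limma adjusted p = 0.0917), and by 0.08 in its other probe set. The receptor cyclase gene Gucy2g differed by 0.17 (limma adjusted p = 0.502) and lay under the lower quartile on all 6 arrays. Among 12 measured cyclic GMP effectors 1 was called higher. This was Rgs2, a regulator of G protein signalling that is a substrate of cyclic GMP-dependent kinase, at 7.03, 6.29 and 6.98 in + dox and 5.77, 4.62 and 4.53 in − dox arrays. It rose by 1.79 (SE 0.37, limma adjusted p = 0.0483), and all 4 of its probe sets had the same sign. The call was lost on leaving out any 1 array but − dox 1 (adjusted p from 0.00973 to 0.179 over the 6 fits). The kinase gene Prkg2 differed by −0.42 (SE 0.12, adjusted p = 0.0931).

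Phosphodiesterases, which break down cyclic nucleotides, had 2 of 16 genes called higher (3.07% of all genes were) and 0 called lower (1.80% were). The count called higher was 0 without − dox 2 or without − dox 3. It was 5 without + dox 1 and without both arrays numbered 1. Pde1c, a calmodulin-dependent enzyme for cyclic AMP and cyclic GMP, read 5.85, 7.32 and 7.74 in + dox and 3.44, 3.46 and 3.26 in − dox arrays. It rose by 3.58 (SE 0.46, limma adjusted p = 0.0145), and all 6 of its probe sets had the same sign. The − dox values lay under the lower quartile, so the size is approximate, and the call was lost without + dox 2, − dox 2 or − dox 3 (adjusted p from 0.000266 to 0.0785 over the 6 fits). Pde9a, an enzyme specific for cyclic GMP, read 6.55, 5.0 and 5.86 against 3.93, 4.20 and 3.71. It rose by 1.86 (SE 0.38, adjusted p = 0.0461), a call lost without + dox 3 or any 1 − dox array (adjusted p from 0.0328 to 0.165 over the 6 fits). Pde5a, the cyclic GMP enzyme that sildenafil inhibits, was chosen after its values were seen. It read 7.85, 8.54 and 8.25 against 7.27, 7.05 and 7.49 (difference 0.94, SE 0.20, adjusted p = 0.0524). The groups did not overlap, and its 3 probe sets gave differences of 0.90 to 0.96. It passed the threshold under 6 alternatives, which were averaging the probe sets of a gene (adjusted p = 0.0375), the filters at 20% (0.0491) and 40% (0.0458), quantile normalisation (0.0490), + dox 1 left out (0.0182) and both arrays numbered 1 left out (0.00793). Over all alternatives its adjusted p ranged from 0.00793 to 0.182.

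Among 13 measured convertases and genes of peptide clearance 0 were called higher and 1 lower. Mbtps1, the site 1 protease of the Golgi, read 10.77, 10.67 and 10.34 in + dox and 11.40, 11.22 and 11.22 in − dox arrays. It fell by 0.69 on the log2 scale (SE 0.14, limma adjusted p = 0.0455). Its other probe sets had −0.07 and 0.26, the mean of all 3 had −0.16 (adjusted p = 0.401), and the call was lost on leaving out any 1 array but + dox 1 (adjusted p from 0.0313 to 0.142 over the 6 fits). Ece1, endothelin converting enzyme, differed by −0.83 (SE 0.27, adjusted p = 0.138), and 1 of its 3 probe sets had the opposite sign.

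Of 23 measured factors that are known to act on natriuretic peptide promoters, 1 was called higher and 0 lower. Tead4, a TEAD factor that binds the M-CAT motif shown above, read 8.44, 8.23 and 8.50 in + dox and 5.64, 6.10 and 5.67 in − dox arrays. It rose by 2.59 (SE 0.16, limma adjusted p = 0.000864), and its other probe set read 6.90, 6.59 and 6.85 against 5.48, 5.80 and 5.64. Tead1 differed by −0.41 (adjusted p = 0.0646), and its other probe set had the opposite sign. The cardiac factors were not called, with differences of −0.19 for Gata4, 1.03 for Gata6, −0.02 for Nkx2-5 and −0.22 for Srf. Gata6 read 6.97, 8.61 and 8.41 in + dox and 7.48, 6.82 and 6.6 in − dox arrays (SE 0.46, limma adjusted p = 0.263). Its groups overlapped through the arrays numbered 1, and all 3 of its probe sets had the same sign. Whether Tead4 acts on Nppb in these cells was not tested.

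Of 22 measured genes of other vasoactive peptide systems 1 was called higher and 0 lower. Edn1, the precursor of endothelin-1, a vessel-constricting peptide, read 6.07, 5.92 and 6.59 in + dox and 4.83, 5.0 and 4.92 in − dox arrays. It rose by 1.28 (SE 0.18, limma adjusted p = 0.0182), a call lost without − dox 2 or − dox 3 (adjusted p from 0.0200 to 0.0870 over the 6 fits). Edn2, a related precursor, read 6.59, 4.93 and 5.27 against 3.99, 4.11 and 4.02 (difference 1.56, SE 0.40, adjusted p = 0.0830). The high value on + dox 1 set its spread, and without that array it differed by 1.06 (adjusted p = 0.0112, range over the 6 fits 0.0112 to 0.223).

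**Figure D4:**
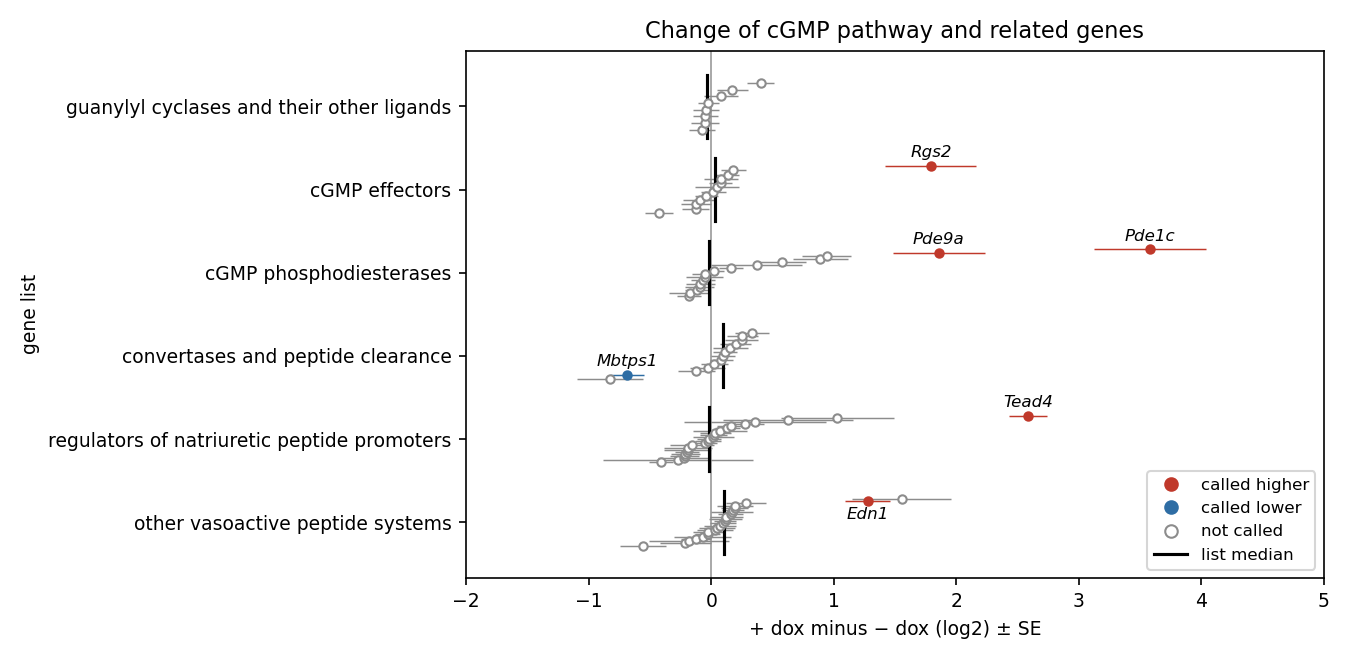
Difference between + dox and − dox arrays (horizontal axis, log2, with the SE) of each measured gene of the 6 lists (vertical axis). Filled points are called genes, open points genes that were not called and black bars the list medians, which lay between −0.03 and 0.11.

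Because Nppb is best known from heart muscle, 12 cardiomyocyte markers were examined. By limma 1 was called higher and 0 lower (4.87% of all genes were called), and 3 had a p under 0.05 before adjustment (21.7% of all genes did). Tnnt2, cardiac troponin T, read 10.92, 10.96 and 11.17 in + dox and 9.92, 9.41 and 10.05 in − dox arrays, a rise of 1.22 (adjusted p = 0.0211). Its other probe sets differed by 1.20 and 0.04. Whether the call of Tnnt2 held with arrays left out or under the other settings was not examined. Myh6, Ryr2 and Ckmt2 lay under the lower quartile on all 6 arrays, and Tnni3 on 3. Actn2 (4.61 to 4.86), Pln (4.4 to 4.64), Myl2 (4.01 to 4.24) and Nkx2-5 lay between the lower quartile and the median on every array, and Mybpc3 (5.65 to 5.88) lay above the median. The atrial light chain gene Myl7 differed by 1.46 (adjusted p = 0.0510) and the titin gene Ttn by −3.01 (adjusted p = 0.0790). Of the 6 probe sets of Ttn, 1 had the opposite sign. The summed level of the 12 markers, on the linear scale, ranged from 2271 to 2696 in + dox and from 1449 to 3232 in − dox arrays. Tnnt2 and Ttn, whose differences had opposite signs, made up most of it. The other 10 markers, Myl7 among them, summed to 233 to 274 in + dox arrays, above the 208 to 224 of the − dox arrays. Among these 10 only Myl7 had every + dox array above every − dox array, at 5.26, 5.17 and 6.34 against 4.04, 4.11 and 4.25. Myl2 had the reverse order (difference −0.16), and the groups of the others overlapped, so the sum does not show a shared rise.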

How the data were processed

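The 6 arrays of 4434 cells were grouped by their labels, 3 + dox and 3 − dox. The deposited values are log2 expression values that the authors made from the scanner files in Chipster by RMA, which corrects the background, normalises by quantiles and summarises the probes. The Chipster version and chip definition are not given in the sources used here. Log2 as the scale was read from the values (2.08 to 14.44), which are levels of single arrays, not centred. The number of arrays limits the precision.

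Of 45101 probe sets, 34945 had 1 gene symbol in the platform annotation of 2016, 932 had several and 9211 were not listed there. The 64 array controls, in part counted among these classes, were left out. For each of 18193 genes the brightest probe set (highest mean of all 6 arrays) was taken. The + dox minus − dox difference was tested in R 4.3.3 by limma 3.58.1 (lmFit, eBayes, two-sided, group as the only term), and p-values were adjusted by Benjamini-Hochberg across all of these genes, with calls at 0.05. The fit was also run on simulated data with independent noise for each gene and array. Such data lack differences between whole arrays, so that run does not test how the fit behaves on these arrays. Upstream sequences and gene order came from RefSeq tables (GRCm38.p6), in which all 8 members were matched.

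The members, gene lists and tests were chosen with earlier results of these data known. The genes named were all members with every probe set, 5 measured neighbours on each side of Nppb, the 5 genes nearest to its profile, and up to 4 called genes per list, or its 2 genes of smallest p if fewer than 2 passed. Pde5a, Gata4, Gata6, Srf, Nkx2-5 and the cell type markers named were picked outside this rule, with their values already seen. Other settings tried were a replicate block, other ways to choose a value per gene, filters on dim genes at 20% and 40%, eBayes with trend or robust settings, quantile normalisation, median centring, each array left out in turn, and both arrays numbered 1 left out.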

Additional observations from a re-analysis of the deposited data

How the results depend on the processing

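The members were chosen with the rise of Nppb known, so its call in each setting is no independent support. Nppb was called higher in every setting, and no other member that was tested was called. The filter at 20% removed Nppa, Npr1, Npr3 and Corin, and that at 40% also Nppc, so these were not tested there. The change of Nppb lay between 7.26 and 7.83 with 1 array left out. Npr2 was not called under any of them, with −1.11 to −0.61 when 1 array was left out and −0.48 without both arrays numbered 1. The representative probe set of Npr3 turned negative without − dox 1, without − dox 3 (range over the 6 fits −0.067 to 0.148) and without both arrays numbered 1 (−0.02), and Mad2l2 turned negative without − dox 3 (range −0.027 to 0.373). Calls in the pathway lists were less stable. The count called higher, 5, was 3 with probe sets in place of genes, 13 without both arrays numbered 1, and between 1 and 9 with 1 array left out. The count called lower, 1, was 0 with the mean of all probe sets, with the probe set of largest variance and with probe sets in place of genes, 3 without both arrays numbered 1, and between 0 and 1 with 1 array left out. Among the neighbours of Nppb, Clcn6 was called lower without + dox 1 (−0.73, limma adjusted p = 0.0387, range over the 6 fits 0.0387 to 0.303), so the count was between 0 and 1. Without both arrays numbered 1 there was 1 call higher and 1 lower. Over all genes the count of 886 calls became 1650 without + dox 1, 170 and 157 without + dox 2 and + dox 3, 1140 without − dox 1, 121 and 119 without − dox 2 and − dox 3, and 3658 without both arrays numbered 1. Fewer arrays enter these fits, and the cause of their spread was not tested.

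Arrays with the same number deviated from their group means with correlations of −0.118, −0.220 and 0.0817. The labels do not say whether such arrays share a culture or a batch, and with so few arrays these correlations cannot settle it. With the replicate number as a block the count over all genes was 303, the pathway lists had 3 calls higher and 0 lower, and Nppb was again the only member called.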
